A study of Mus musculus with 6 samples.

Results

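The interferon-stimulated genes described here are 44 genes that interferons switch on, together with the transcription factors that switch them on. They were chosen from general knowledge of the interferon response with earlier results of these lungs known, so their fold changes, counts and p-values describe these lungs and carry no weight as independent evidence. The array annotation assigns 86 of its 45281 probes to them, and 59 probes of 36 of the 44 genes were bright enough to be tested, among 20118 tested probes of 11080 named genes. Whole-lung RNA at embryonic day 18.5 was compared between 3 ROSA26Foxf1:Tie2-cre lungs and 3 ROSA26-LSL-Foxf1 lungs, called Tie2-cre lungs and control lungs here. All 6 carried the Foxf1 cDNA in the ROSA26 locus behind a loxP-flanked stop. The cre transgene, present in the Tie2-cre lungs, removes that stop in endothelial and blood cell lineages, where the Tie2 (Tek) promoter is active, and the array reads the RNA of these cells mixed with that of all other lung cells.

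Interferons are secreted proteins that warn cells of infection. Type I interferons (alpha and beta) signal through IFNAR1 and IFNAR2 to the kinases JAK1 and TYK2. A complex that holds STAT2 and IRF9 then binds interferon-stimulated response elements (ISRE), whereas type II interferon (gamma) acts mainly at gamma-activated sites (GAS). The induced genes encode sensors of foreign nucleic acid, proteins that block virus entry and replication, GTPases that attack intracellular pathogens, and signals to lymphocytes. Many of them are also transcribed at a low level without infection. In whole tissue, fewer cells of a type and less RNA per cell cannot be told apart.

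Between 19831 and 20043 probes per lung were detected above the negative controls (detection p under 0.01). Levels are log2 signals after background correction and quantile normalization, on which undetected probes read about 4.35 (their median). Fold changes are Tie2-cre over control, and a probe was called at a Benjamini-Hochberg adjusted p under 0.05 (limma, over all 20118 tested probes) with a change of at least 1.2-fold. Markers of the labelled tissue were present, with 8 of 9 epithelial, 8 of 10 endothelial and 6 of 6 mesenchymal markers detected in each lung. Foxf1 had 10.93, 10.77 and 10.83 in the Tie2-cre lungs, against 10.68, 10.15 and 10.77 in the control lungs, and was not called (log2 fold change 0.31 ± 0.17, standard error, adjusted p = 0.285). Its probe position was not examined, so whether it reads the knocked-in copy was not tested. Across the array 908 probes were called, 53.7% of them higher (39.3% after cyclic loess, 61.7% after median scaling). With 3 lungs per group, precision is limited by their number.

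Interferon-stimulated genes were lower in Tie2-cre lungs for most of those measured, and most of them did not pass the threshold. Taking each gene by its brightest tested probe, 33 of 36 genes (91.7%) had a lower mean in Tie2-cre lungs, against 42.3% of all tested genes. The median log2 fold change was −0.45 (all tested genes 0.05), with a range from −1.52 to 0.20. The threshold was passed downwards by 5 of 36 genes (13.9%), beside 1.44% of all tested genes, and these were Irf9, Isg15, Gbp3, Cd274 and Ifi35. Upwards it was passed by 0 of 36, beside 1.54% of all genes (also 0 of 36 at an unadjusted p under 0.05, and 0 under every other setting tried). Counting a call by any probe, 9 of 36 genes (25%) were lower, beside 2.93%, adding Dhx58, Usp18, Ifit3 and Irgm1, and 0 were higher, beside 2.89%. The called Ifit3 probe was detected in 1 Tie2-cre lung and 3 control lungs, so it could be tested through the control lungs. In probes, 10 of 59 were called lower (2.09% of all tested probes) and 0 of 59 higher (2.43%). For 17 genes (47.2%) every Tie2-cre lung was below every control lung, beside 10.9% of all genes, and for 0 was every Tie2-cre lung above, beside 18.5%. The count of 5 rested on single lungs. It was 0 without Tie2-cre replicate 1, 0 without Tie2-cre replicate 3 and 0 without control replicate 1. Without Tie2-cre replicate 2 it was 4 (2 of the 5 kept), without control replicate 2 it was 4 (all among the 5), and without control replicate 3 it was 1 (Cd274). Leaving out 1 lung also moved the count over the whole array to between 2 and 1703 probes. The number of members with a lower mean stayed between 31 and 34 of 36 in these settings.

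**Figure D1:**
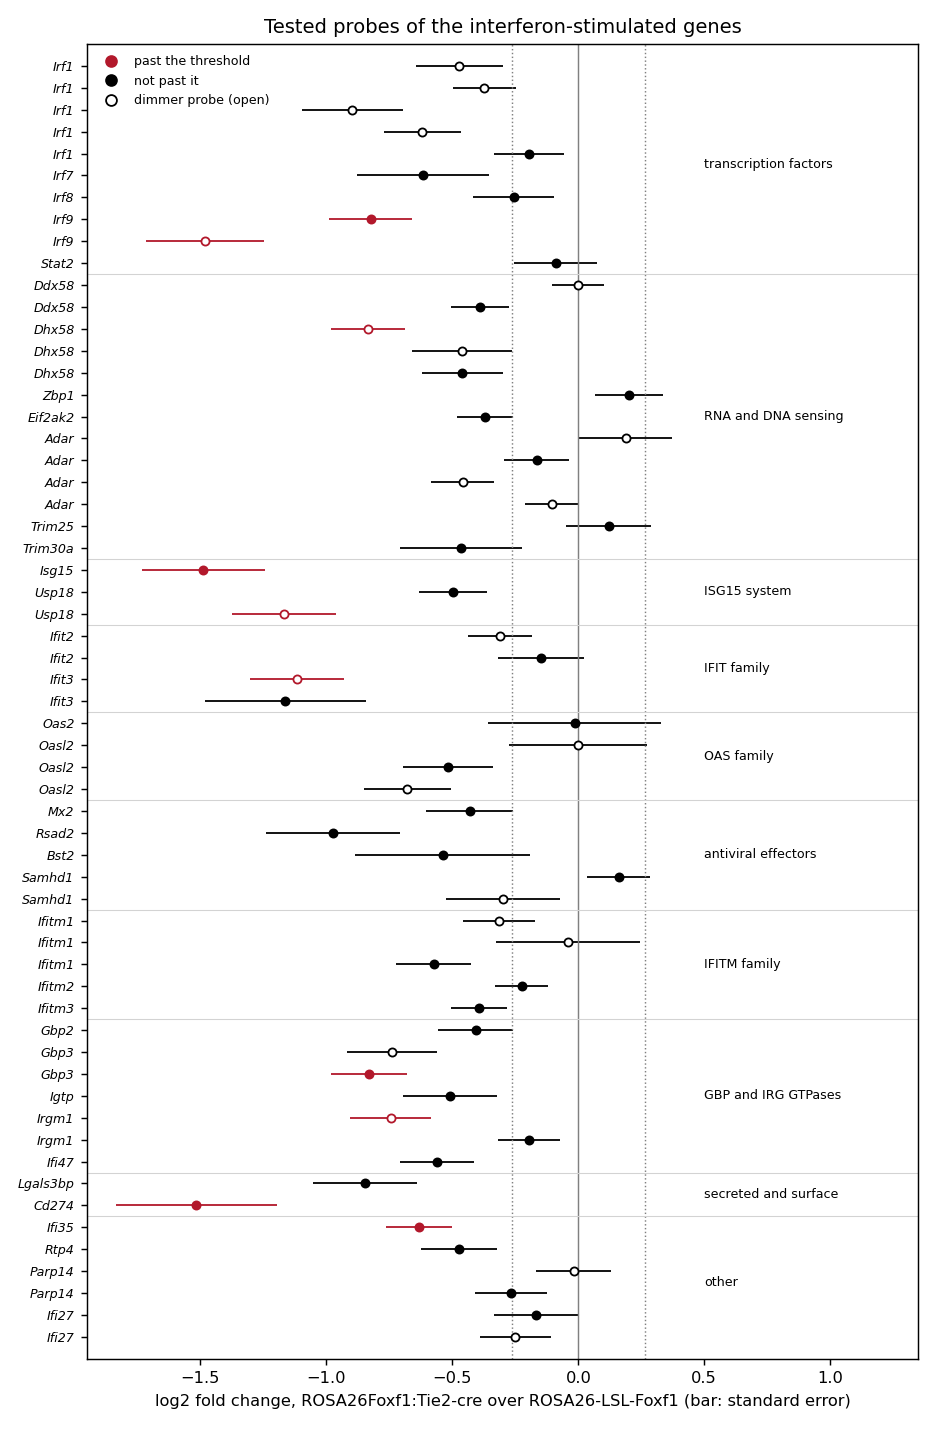
Log2 fold change (Tie2-cre over control, x axis) with its standard error for each of the 59 tested probes of the 36 tested genes, grouped by role, with filled points for a gene's brightest probe, open points for its dimmer probes, red for probes past the threshold, and dotted lines at 1.2-fold. Of the 59 probes 55 lie left of 0, and the 10 red ones are all lower in Tie2-cre lungs.

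The 6 lungs did not fall into 2 tight sets. Averaged over the 36 genes, each gene centred on its own mean of the 6 lungs, the level was −0.37 in Tie2-cre replicate 1, 0.00 in replicate 2 and −0.33 in replicate 3, against 0.37, 0.31 and 0.02 in control replicates 1, 2 and 3. Tie2-cre replicate 2 and control replicate 3 were thus level, and the distance between the groups came from the other 4 lungs. Tie2-cre replicate 2 had the highest value of its group in 30 of 36 genes and the lowest in 0, and control replicate 3 had the lowest value of its group in 30 of 36. Control replicates 1 and 2 each lay above all Tie2-cre lungs in 31 genes, control replicate 3 in 17. Tie2-cre replicates 1 and 3 lay below all control lungs in 29 and 30 genes, Tie2-cre replicate 2 in 17. The groups overlapped in 19 genes.

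**Figure D2:**
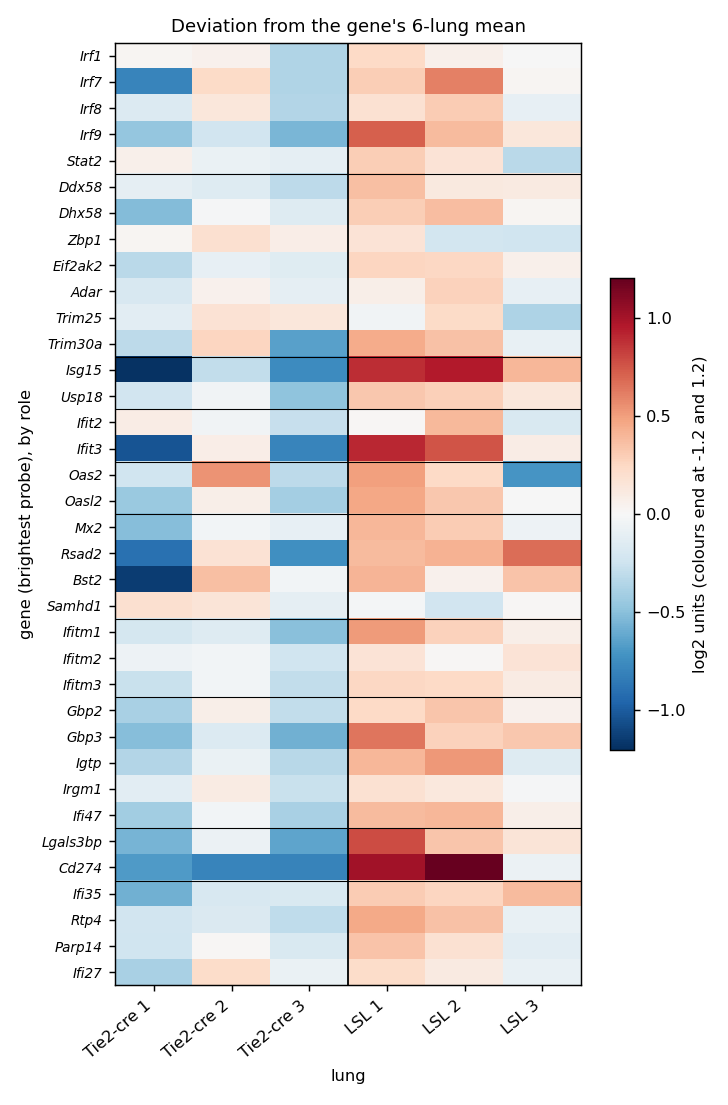
Deviation of each lung (columns) from the gene's own mean over the 6 lungs, in log2 units, for the brightest probe of each of the 36 tested genes (rows, ordered by role). Blue dominates in Tie2-cre replicates 1 and 3 and red in control replicates 1 and 2, while Tie2-cre replicate 2 and control replicate 3 are pale in most rows.

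Transcripts of T cells and thymocytes followed part of this division. Cd3d, a subunit of the T cell receptor complex, had 4.51, 4.43 and 4.45 in the Tie2-cre lungs, against 9.65, 11.06 and 5.02 in the control lungs. Of 18 T cell and thymocyte genes with a probe, 3 were detected in each Tie2-cre lung, against 13, 14 and 4 in control replicates 1, 2 and 3. Their mean log2 level lay between 5.19 and 5.23 in Tie2-cre lungs and between 5.29 and 7.73 in control lungs. The centred means were −0.74, −0.71 and −0.73 in the Tie2-cre lungs, against 1.04, 1.79 and −0.65 in the control lungs. Control replicates 1 and 2 therefore held both the highest T cell transcripts and the highest interferon-stimulated ones. The T cell means, like the T cell covariate used below, take each gene by its brightest probe. For Cd8b1 that probe had 11.69, 11.58 and 11.80 in the Tie2-cre lungs, against 11.31, 11.43 and 11.37 in the control lungs. Another Cd8b1 probe had 4.72, 4.87 and 4.45 in the Tie2-cre lungs, against 11.07, 12.04 and 4.98 in the control lungs. Neutrophil transcripts (7 genes) had centred means of −0.28, 0.53 and −0.996 in the Tie2-cre lungs, against 0.03, 0.19 and 0.52 in the control lungs. Those of macrophages and monocytes (11 genes) had −0.22, 0.01 and −0.15 in the Tie2-cre lungs, against 0.15, 0.10 and 0.12 in the control lungs. Of these 11 genes 9 had a lower mean in Tie2-cre lungs. The other 2, Ccr2 and Cx3cr1, had a higher one (log2 fold changes 0.60 and 0.24). Only Fcgr1 was called lower (−0.47, limma adjusted p = 0.0452), 1 of 11, beside 1.44% of all tested genes. In the neutrophil and macrophage lists Tie2-cre replicate 2 was the highest of its group, as it was for the interferon-stimulated genes. It was also the highest, by less, for the lists of B cells, endothelium and mesenchyme (0.02, 0.12 and 0.07). The same held for the mean of all tested genes (0.02), so this order was not particular to these lists. The list of dendritic cell markers (11 genes) had −0.21, −0.01 and −0.00 in the Tie2-cre lungs, against 0.15, 0.39 and −0.32 in the control lungs. Among the controls this was the order of the T cell transcripts. Its genes were divided. H2-Ab1, H2-Aa, H2-Eb1 and Cd74 had lower means in Tie2-cre lungs. Batf3, Zbtb46 and Siglech (0.24, 0.24 and 0.94) had higher ones. Siglech was called higher (limma adjusted p = 0.0431), 1 of 7 tested genes of this list, beside 1.54% of all tested genes. Its probe was detected in Tie2-cre lungs only, so it passed the detection filter through them. Flt3, Xcr1, Cd209a and Ccr9 were not detected in any lung. The lists for B cells, NK cells, endothelium, lung epithelium and mesenchyme stayed between −0.22 and 0.17 in every lung. The macrophage and monocyte values lay in the same range.

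Removing control replicates 1 and 2 left control replicate 3 alone, assumed to vary as the Tie2-cre lungs do. In that setting 28 of 36 genes had a lower mean in Tie2-cre lungs, and the median log2 fold change was −0.25. With control replicate 3 alone, calls were not read. With the mean T cell and thymocyte level as a covariate, 29 of 36 had a lower estimate and the median was −0.24. With the covariate 0 brightest probes of the 36 genes were called. Dimmer probes of Irf9 and Usp18 were called, beside 888 of all 20118 tested probes. Both settings were chosen with the T cell transcripts of these lungs known. Ifi35 changed little between the settings (−0.69 and −0.70, against −0.63 over all lungs), as did Gbp3 (−0.74 and −0.81, against −0.83). Isg15 had −1.14 in both settings (limma adjusted p = 0.0867 with the covariate), against −1.49 over all lungs. Cd274 was reduced most in size (−0.69 and −0.67, limma adjusted p = 0.0525 with the covariate), against −1.52. How far cells other than lung cells carried the difference was not tested.

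**Figure D3:**
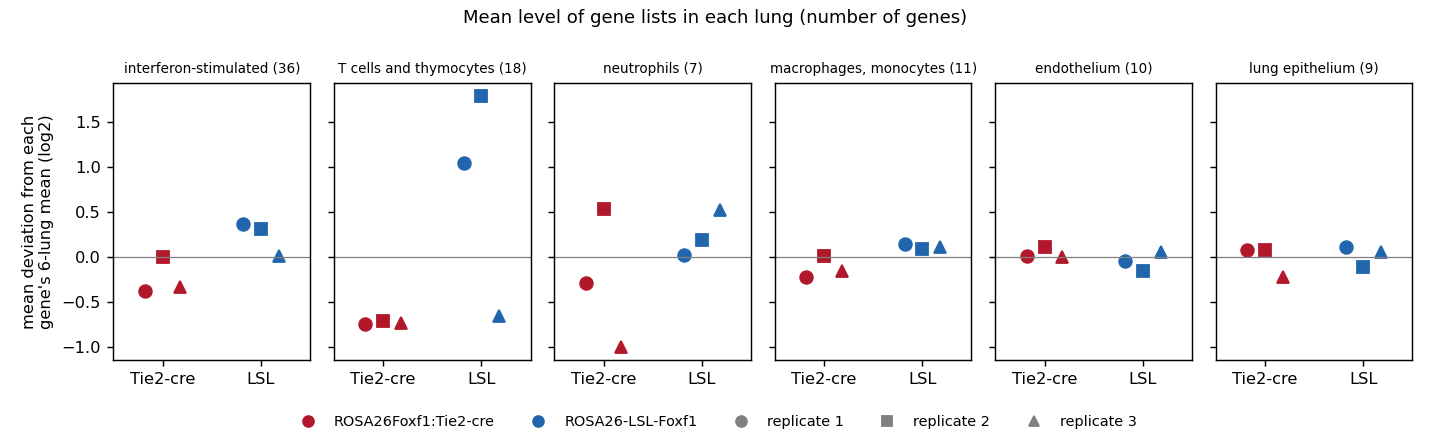
Mean deviation from each gene's 6-lung mean (y axis, log2 units) in each lung for the 36 interferon-stimulated genes and for 5 lists of cell type markers, with the number of genes in each panel title and symbols marking the replicate. The interferon-stimulated panel shows Tie2-cre replicate 2 (0.00) level with control replicate 3 (0.02), and the T cell panel shows control replicates 1 and 2 (1.04 and 1.79) apart from the other 4 lungs.

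Promoter sequences from RefSeq (GRCm38.p6, from 250 bases before to 50 after the transcription start) were matched for 34 of the 44 genes by symbol. They were searched on both strands for ISRE-like letters, GAAANNGAAA, and for GAS-like letters, TTCNNNGAA, which read the same on both strands. Overlapping matches were each counted, also between motifs. ISRE-like letters were found in 20 of 42 promoters of the genes (47.6%; 19 of 34 genes), beside 3.44% of all 32851 promoters of that length, and GAS-like letters in 12 of 42 (28.6%; 12 of 34 genes), beside 8.3% of all. A match describes the letters and shows no binding. Stretches before the start are shown for the 4 genes with a called probe and ISRE-like letters, Isg15, Ifit3, Gbp3 and Irgm1, and for 2 genes with no called probe as an example of each motif, Rsad2 (ISRE-like) and Irf1 (GAS-like). Capitals mark the matches, and each stretch runs 5′ to 3′ on the gene's strand.
Isg15 (chr4:156200850-156200921, minus strand): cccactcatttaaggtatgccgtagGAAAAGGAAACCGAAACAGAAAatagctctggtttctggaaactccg
Ifit3 (chr19:34583348-34583441, plus strand): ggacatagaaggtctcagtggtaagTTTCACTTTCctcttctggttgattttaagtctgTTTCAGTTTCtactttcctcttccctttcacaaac
Gbp3 (chr3:142559974-142560039, plus strand): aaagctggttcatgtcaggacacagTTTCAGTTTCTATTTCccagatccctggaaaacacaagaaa
Irgm1 (chr11:48871421-48871475, minus strand): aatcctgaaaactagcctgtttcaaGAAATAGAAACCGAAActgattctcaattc
Rsad2 (chr12:26456538-26456597, minus strand): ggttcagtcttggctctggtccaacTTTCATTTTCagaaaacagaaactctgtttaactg
Irf1 (chr11:53769899-53769957, plus strand): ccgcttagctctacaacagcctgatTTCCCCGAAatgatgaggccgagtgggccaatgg
Isg15 holds 3 overlapping ISRE-like matches, from 78 bases before the start onwards. Gbp3 and Irgm1 hold 2 overlapping matches each, Ifit3 2 separate ones. Of the 9 genes with a called probe, 7 had a promoter sequence, 4 of them with ISRE-like letters and 1, Ifi35, with GAS-like letters after the start. Irf9 and Cd274 were called lower without either kind of letters in this window. Conversely, 15 of 21 tested genes with no called probe, and 5 of 6 untested ones, held at least 1 of the motifs.

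**Figure D4:**
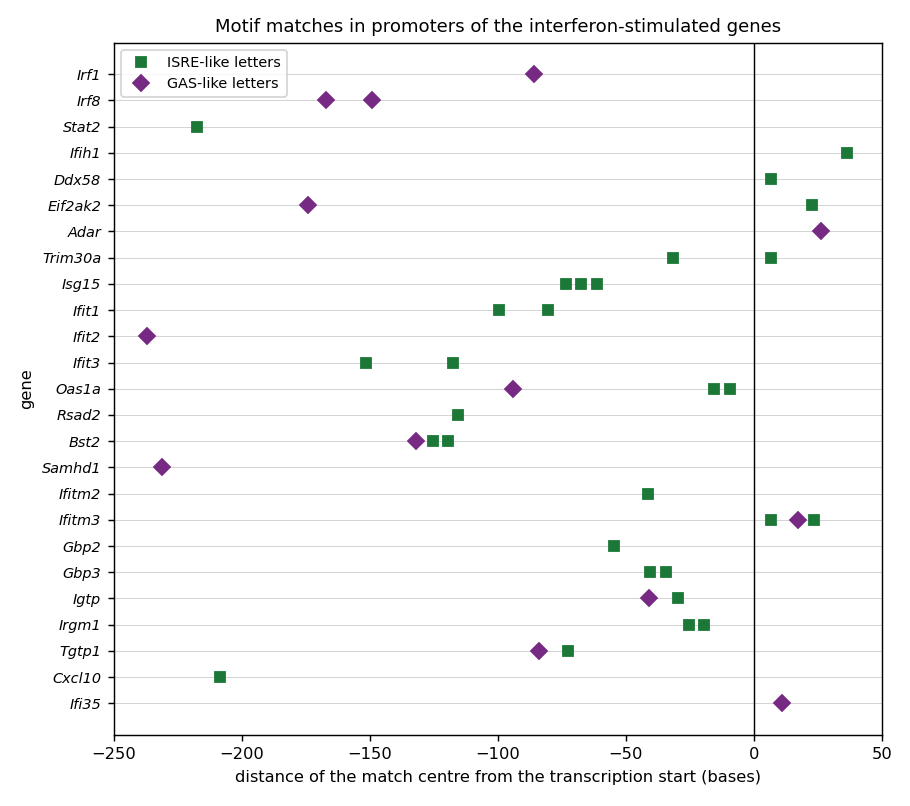
Position of each ISRE-like match (green squares) and GAS-like match (purple diamonds) relative to the transcription start (x axis, bases) in the promoters of the genes that have one (y axis). Most ISRE-like matches lie upstream of the start, and those of Isg15, Gbp3 and Irgm1 lie within 78 bases of it.

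Among the transcription factors Irf9 fell. It encodes a DNA-binding subunit of the complex that forms with STAT2 after type I interferon. Its brighter probe had 9.47, 9.71 and 9.38 in the Tie2-cre lungs, against 10.65, 10.32 and 10.07 in the control lungs (means 9.52 ± 0.17 and 10.35 ± 0.29, SD, n = 3 each). Its log2 fold change was −0.82 (SE 0.17, limma adjusted p = 0.0441). The dimmer one had 6.71, 7.56 and 7.13 in the Tie2-cre lungs, against 8.80, 8.27 and 8.77 in the control lungs (log2 fold change −1.48, adjusted p = 0.0332). Every Tie2-cre lung was below every control lung on both probes. On the dimmer one control replicate 3 was as high as control replicate 1, unlike the mean of the 36 genes, and of the 2 probes it alone passed with the T cell covariate (−1.71, adjusted p = 0.0447). The adjusted p of the brighter probe ranged from 0.0496 (without control replicate 2, the only lung whose removal kept the call) to 0.138, and that of the dimmer one from 0.0234 to 0.127, past the threshold without Tie2-cre replicate 2 or control replicate 2.

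The other 4 factors had no call on any of their 8 probes. Irf7, which amplifies interferon alpha production, had 6.09, 7.11 and 6.52 in the Tie2-cre lungs, against 7.18, 7.49 and 6.91 in the control lungs, so that the groups overlapped (log2 fold change −0.62, adjusted p = 0.187). Irf1, a factor of the interferon gamma response, had 5 tested probes with log2 fold changes between −0.90 and −0.20. The probe at −0.90 had 7.63, 7.95 and 7.79 in the Tie2-cre lungs, against 8.95, 8.23 and 8.88 in the control lungs (adjusted p = 0.0502), and the brightest, at −0.20, had overlapping groups. Where the probes lie in the transcript was not examined. Irf8, needed for myeloid cell development, had −0.26 and Stat2 −0.09 (adjusted p = 0.347 and 0.767), both with overlapping groups.

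Of the nucleic acid sensors and their regulators, 7 of 8 were tested and 1 had a called probe. Dhx58 encodes LGP2, which regulates the RNA sensors RIG-I and MDA5. Its dimmest tested probe fell, with 5.97, 6.18 and 5.79 in the Tie2-cre lungs, against 6.99, 6.59 and 6.87 in the control lungs (log2 fold change −0.83, adjusted p = 0.0386 from limma; 0.0241 to 0.131 with 1 lung left out, past the threshold without Tie2-cre replicate 2 or control replicate 2). The brightest had 7.55, 8.05 and 7.91 in the Tie2-cre lungs, against 8.36, 8.44 and 8.09 in the control lungs, a smaller difference (−0.46, adjusted p = 0.123). Ddx58, which encodes RIG-I itself, had −0.39 and Eif2ak2, the RNA-activated kinase PKR, −0.37 (adjusted p = 0.0899 and 0.0921), each with every Tie2-cre lung below the controls on its brightest probe. The other tested Ddx58 probe, dimmer and detected on 3 arrays, overlapped between the groups (5.39, 5.20 and 5.40 in the Tie2-cre lungs, against 5.27, 5.32 and 5.40 in the control lungs, adjusted p = 0.989). Trim30a, a mouse ubiquitin ligase gene, had 6.18, 6.75 and 5.84 in the Tie2-cre lungs, against 6.93, 6.84 and 6.40 in the control lungs (−0.47, adjusted p = 0.269). Its groups overlapped. Zbp1, a sensor of Z-form nucleic acid, and Trim25, a ubiquitin ligase gene of the RIG-I pathway, had higher means in Tie2-cre lungs (0.20 and 0.12, adjusted p = 0.379 and 0.685). The RNA editing enzyme gene Adar had 4 tested probes between −0.46 and 0.19, none of them called.

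Isg15 encodes a ubiquitin-like protein that is attached to other proteins after interferon, and it had the largest fall on a brightest probe after Cd274. It had 7.09, 7.98 and 7.52 in the Tie2-cre lungs, against 9.16, 9.22 and 8.67 in the control lungs. It averaged 7.53 ± 0.45 in Tie2-cre lungs and 9.02 ± 0.30 in control lungs (SD, n = 3 each), 2.81-fold lower (log2 fold change −1.49, SE 0.24, limma adjusted p = 0.0357). The highest Tie2-cre lung was 0.69 below the lowest control lung, and these were again Tie2-cre replicate 2 and control replicate 3. With 1 lung left out the adjusted p ranged from 0.0351 to 0.128 and passed without Tie2-cre replicate 2 or control replicate 2. Usp18, whose product removes ISG15 and restrains the type I receptor, had a dimmer probe that fell, with 6.79, 7.43 and 6.99 in the Tie2-cre lungs, against 8.40, 7.89 and 8.42 in the control lungs (−1.17, adjusted p = 0.0386; 0.0234 to 0.132 with 1 lung left out, past the threshold in the same pair of settings). This probe also passed with the T cell covariate (−1.42, limma adjusted p = 0.0449), a setting in which 888 of 20118 probes passed. Its brighter probe had 10.23, 10.42 and 9.98 in the Tie2-cre lungs, against 10.78, 10.74 and 10.60 in the control lungs (−0.50, adjusted p = 0.0740), without overlap.

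**Figure D5:**
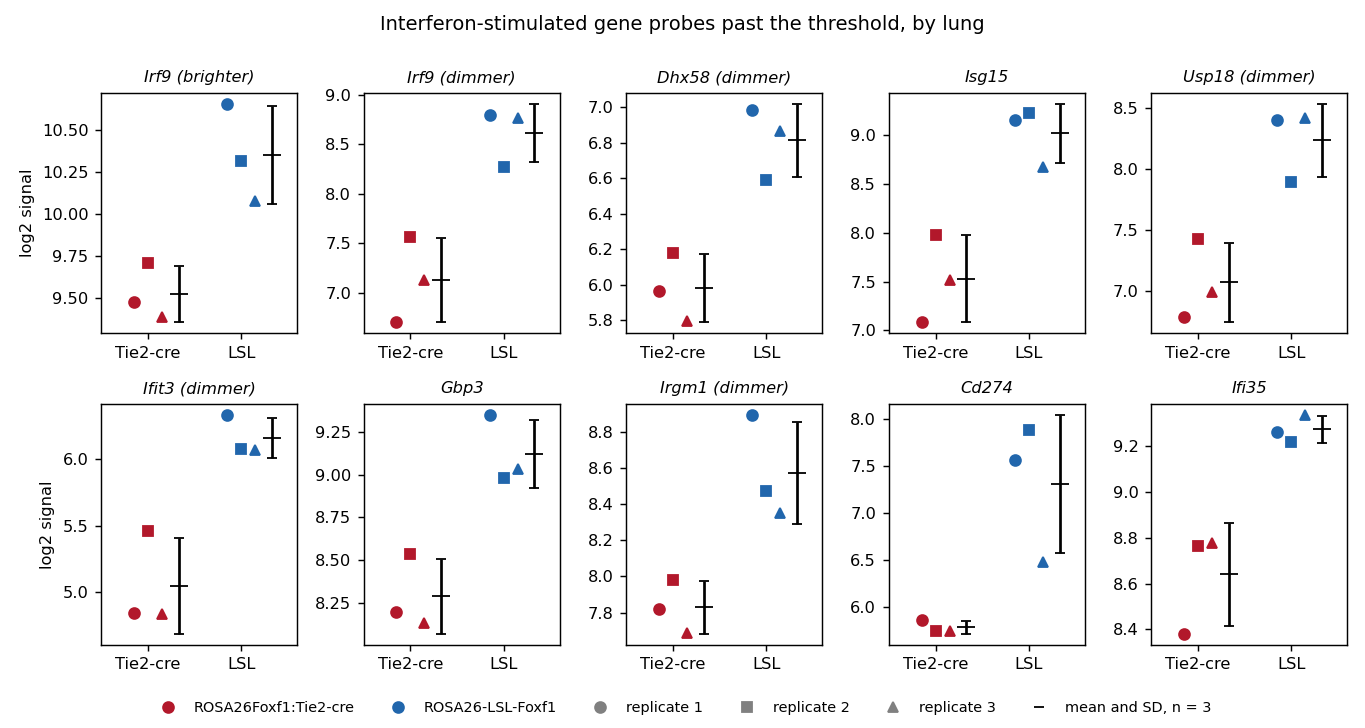
Log2 signal (y axis) in each lung for the 10 probes past the threshold, with Tie2-cre lungs in red, control lungs in blue, symbols marking the replicate, and the mean with SD (n = 3) beside each group. The groups do not overlap in any panel, Tie2-cre replicate 2 is the highest of its group in 8 panels, and in the panel of Cd274 control replicate 3 (6.48) lies far below control replicates 1 and 2.

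The IFIT proteins bind viral RNA and block its translation. Ifit3 had the clearest difference in this family. Its dimmer probe had 4.84, 5.46 and 4.83 in the Tie2-cre lungs, against 6.34, 6.08 and 6.07 in the control lungs (log2 fold change −1.12, adjusted p = 0.0359 from limma; 0.0221 to 0.129 with 1 lung left out, past the threshold without Tie2-cre replicate 2 or control replicate 2), and was detected in 1 Tie2-cre lung and 3 control lungs. The brighter one had 7.36, 8.48 and 7.60 in the Tie2-cre lungs, against 9.30, 9.15 and 8.48 in the control lungs, a similar change (−1.16) with a wider spread (adjusted p = 0.0777). Ifit2 had 8.98, 8.84 and 8.61 in the Tie2-cre lungs, against 8.90, 9.28 and 8.70 in the control lungs, overlapping widely (−0.15, adjusted p = 0.615). Its sign turned with the T cell covariate (0.17) and without control replicates 1 and 2 (0.11).

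OAS proteins make oligoadenylates that activate RNase L. None of the 4 tested probes of this family was called. Oas2 had 6.34, 7.12 and 6.26 in the Tie2-cre lungs, against 7.07, 6.82 and 5.87 in the control lungs, with the extremes of both groups interleaved (log2 fold change −0.01, adjusted p = 0.983). Without control replicates 1 and 2 its estimate was 0.70, and with the T cell covariate 0.64. Oasl2 had 8.80, 9.31 and 8.84 in the Tie2-cre lungs, against 9.70, 9.56 and 9.23 in the control lungs (−0.52, adjusted p = 0.123). Its other probes had −0.68 and −0.00.

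Of the other antiviral effectors Rsad2 differed most. Its product, viperin, makes a chain-terminating nucleotide. The gene had 8.60, 9.66 and 8.75 in the Tie2-cre lungs, against 9.87, 9.91 and 10.17 in the control lungs, with no overlap (log2 fold change −0.98, SE 0.27, limma adjusted p = 0.0759). Here control replicate 3 was the highest lung, and the estimate was −1.16 without control replicates 1 and 2. Leaving out Tie2-cre replicate 2, the highest of its group, gave −1.30 and brought Rsad2 past the threshold. Bst2, which encodes tetherin, a protein that holds budding virus on the cell, had 7.27, 8.77 and 8.38 in the Tie2-cre lungs, against 8.81, 8.46 and 8.75 in the control lungs (−0.54, adjusted p = 0.359), a spread set by Tie2-cre replicate 1. Mx2 had −0.43 (adjusted p = 0.168). Samhd1, a nucleotide hydrolase gene, had a higher mean on its brighter probe (0.16) and a lower one on the other (−0.30).

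IFITM proteins sit in membranes and restrict virus entry. Ifitm1 had 13.55, 13.61 and 13.26 in the Tie2-cre lungs, against 14.28, 14.04 and 13.84 in the control lungs (log2 fold change −0.57, adjusted p = 0.0686 from limma). Ifitm3 had 13.63, 13.86 and 13.60 in the Tie2-cre lungs, against 14.14, 14.13 and 13.99 in the control lungs (−0.39, adjusted p = 0.0835). Ifitm2 had −0.22 (adjusted p = 0.226). The brightest probes of these 3 genes separated the groups without overlap, but none passed the threshold. The other tested Ifitm1 probes had −0.31 and −0.04.

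Guanylate binding proteins (GBP) and immunity-related GTPases (IRG) act on vacuoles that hold bacteria or parasites, mainly after interferon gamma. Gbp3 fell, with 8.20, 8.54 and 8.13 in the Tie2-cre lungs, against 9.35, 8.98 and 9.03 in the control lungs (means 8.29 ± 0.22 and 9.12 ± 0.20, SD, n = 3 each). Its log2 fold change was −0.83 (SE 0.15, limma adjusted p = 0.0396; 0.0314 to 0.135 with 1 lung left out, past the threshold without Tie2-cre replicate 2 or control replicate 2). Its other tested probe was close, at −0.74 (adjusted p = 0.0586). Irgm1, a regulator of the IRG system, fell on a dimmer probe, with 7.82, 7.98 and 7.69 in the Tie2-cre lungs, against 8.89, 8.48 and 8.35 in the control lungs (−0.74, adjusted p = 0.0473; 0.0491 to 0.146 with 1 lung left out, past the threshold only without control replicate 2). Its brightest probe had 11.43, 11.65 and 11.29 in the Tie2-cre lungs, against 11.74, 11.68 and 11.55 in the control lungs, and overlapped (−0.20, adjusted p = 0.344). Ifi47, another IRG gene, had 5.84, 6.22 and 5.86 in the Tie2-cre lungs, against 6.63, 6.65 and 6.32 in the control lungs, without overlap (−0.56, adjusted p = 0.0700). Gbp2 and Igtp had −0.41 and −0.51, with overlapping groups.

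Cd274 encodes PD-L1, the surface ligand through which cells restrain T cells that carry PD-1. It had 5.87, 5.76 and 5.75 in the Tie2-cre lungs, against 7.56, 7.88 and 6.48 in the control lungs. The Tie2-cre lungs were tight and the controls wide (5.79 ± 0.07 and 7.31 ± 0.73, SD, n = 3 each), and the log2 fold change was −1.52 (SE 0.32, limma adjusted p = 0.0464). It was called without control replicate 3 (limma adjusted p = 0.00945) and not without any other lung (up to 0.146). The order of its control lungs was that of their T cell transcripts. This order was not particular to Cd274. The brightest probes of Isg15, Irf7, Irf8, Gbp2, Igtp and Ifi47, among others, had it too, and those of Irf9, Gbp3 and Ifi35 did not. Lgals3bp, which encodes a secreted glycoprotein that binds galectins, had 9.83, 10.32 and 9.76 in the Tie2-cre lungs, against 11.17, 10.72 and 10.54 in the control lungs, without overlap (−0.85, SE 0.21, adjusted p = 0.0605).

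Among the remaining genes Ifi35, an interferon-induced gene whose product has a leucine zipper, fell. It had 8.38, 8.76 and 8.78 in the Tie2-cre lungs, against 9.26, 9.22 and 9.34 in the control lungs (means 8.64 ± 0.23 and 9.27 ± 0.06, SD, n = 3 each). Its log2 fold change was −0.63 (SE 0.13, limma adjusted p = 0.0452). The controls lay within 0.12 of each other, control replicate 3 was the highest of them, and the call held only without control replicate 2 (adjusted p = 0.0490; up to 0.144 without another lung). Rtp4 had 6.40, 6.45 and 6.33 in the Tie2-cre lungs, against 7.08, 6.98 and 6.54 in the control lungs, without overlap (−0.47, adjusted p = 0.105). Parp14 and Ifi27 had −0.27 and −0.17, both with overlapping groups.

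The probe chosen changed the size of a difference. Of 15 genes with several tested probes, the brightest had the highest log2 fold change in 8 (in Samhd1 above 0), and 5 of the 10 called probes were not the brightest of their gene. All tested probes were lower in Tie2-cre lungs for 32 genes.

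The 8 genes that were not tested were Ifih1, Ifit1, Oas1a, Mx1, Iigp1, Tgtp1, Cxcl10 and Xaf1. They include the gene of the RNA sensor MDA5 (Ifih1) and several classic interferon-induced genes. Their probes were not detected in any lung, with 1 exception. Cxcl10, which encodes a chemokine that attracts T cells, had a probe with 4.40, 4.31 and 4.56 in the Tie2-cre lungs, against 5.33, 5.59 and 4.43 in the control lungs, detected in 1 control lung. The control lungs with the higher signal were again replicates 1 and 2. A difference between the groups was not detectable for these genes at this signal.

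Genes upstream of the response were read from a list of their own. Of 38 genes for interferons, their receptors and signalling, 36 had a probe and 23 were tested, 0 of them called on the brightest probe in either direction, beside 1.44% lower and 1.54% higher of all tested genes. At an unadjusted p under 0.05 with the same fold limit, 3 were lower and 2 higher, beside 950 and 1306 of 11080 genes, so these counts do not set the list apart. Their median log2 fold change was 0.04 (all tested genes 0.05), and 11 of 23 had a lower mean. The interferon genes themselves gave no tested probe. Ptpn6, which encodes the phosphatase SHP-1 of blood cells, had the largest change on a brightest probe, with 9.32, 9.25 and 9.18 in the Tie2-cre lungs, against 9.69, 9.93 and 9.63 in the control lungs (−0.50, adjusted p = 0.0522 from limma). By a dimmer probe 2 genes rose, with larger changes, and 0 fell (beside 2.89% higher and 2.93% lower by any probe). Il10rb, a receptor chain shared by interferon lambda and interleukin 10, had 7.64, 7.43 and 7.44 in the Tie2-cre lungs, against 6.58, 6.90 and 6.33 in the control lungs (0.90, adjusted p = 0.0377), whereas its brighter probe had −0.41. Jak1 had 6.14, 6.18 and 6.63 in the Tie2-cre lungs, against 5.61, 5.45 and 5.26 in the control lungs (0.88, adjusted p = 0.0408), and 0.28 on its brightest probe.

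In a second list, of 60 further interferon-stimulated genes, lower means in Tie2-cre lungs were again in the majority. In all 54 had a probe and 35 were tested, of which 6 (17.1%) were called lower and 0 higher by the brightest probe, beside 1.44% and 1.54% of all tested genes. By any probe 7 (20%) were called lower and 0 higher, beside 2.93% and 2.89%, and 29 (82.9%) had a lower mean, beside 42.3%. The median log2 fold change was −0.31. The largest falls were those of Phf11d, Psmb8, Mndal and Tor3a. Psmb8, an interferon-inducible subunit of the immunoproteasome, had 9.32, 9.60 and 9.19 in the Tie2-cre lungs, against 10.54, 10.82 and 9.98 in the control lungs (−1.07, adjusted p = 0.0441 from limma). Its dimmer probe had overlapping groups and was not called (−0.46, limma adjusted p = 0.301). Phf11d had 6.55, 7.21 and 6.85 in the Tie2-cre lungs, against 8.48, 7.86 and 8.09 in the control lungs on its dimmer probe (−1.27, adjusted p = 0.0357), and −0.60 on the brighter one (adjusted p = 0.0484). Mndal, of the family of DNA-binding proteins with IFI16, had 4.81, 5.45 and 5.03 in the Tie2-cre lungs, against 6.29, 6.22 and 5.94 in the control lungs (−1.05, limma adjusted p = 0.0372). Its probe was detected in 1 Tie2-cre lung and 3 control lungs, so it passed the detection filter through the control lungs. In Tor3a, a torsin ATPase gene, the Tie2-cre lungs had 6.21, 6.70 and 6.17, against 7.47, 6.93 and 7.45 in the control lungs (−0.92, adjusted p = 0.0483). Psmb8 followed the order of the T cell transcripts in the controls, while on the dimmer probe of Phf11d and in Tor3a control replicate 2 was the lowest of its group (on the brighter Phf11d probe the controls had 8.87, 8.91 and 8.90). Lgals9 and Trim34a were called lower too, as was Shisa5 on a dim probe only. This list was also written with results of these lungs known.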

How the data were processed

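Each of 6 whole lungs was read on its own Illumina mouse BeadChip array. The authors deposited, per probe and lung, a background-subtracted intensity, with 25.5% to 28.5% of values below 0, and beside it a detection p-value. The authors also deposited log2-scale values after robust spline normalization and variance stabilization (lumi), used here as an alternative. The intensities were processed with neqc of limma 3.58.1 in R 4.3.3 (background estimated from the detection p-values, offset 16, log2, quantile normalization). Probes detected (p under 0.01) on 3 or more of 6 arrays were tested with lmFit and eBayes, with Benjamini-Hochberg adjustment over all of them. The fold and adjusted p thresholds, 1.2 and 0.05, follow the study's methods. A gene was represented by its tested probe with the highest mean. Of 45281 probes, 34885 had 1 symbol in the annotation, 18 had several and 10378 had none. Symbols were updated by gene ID for 34807. The sequences of the probes, and cross-hybridization between related members, were not examined.

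The members, the role groups, the lists, the tests and the alternatives were chosen with earlier results of these data known. Values of every lung are given for each member with a called probe, for the 2 members with the largest absolute change in each role group, for Foxf1, and for the genes of the other interferon lists that passed by any probe, at most 4 per direction, or otherwise the 2 largest. Markers of B cells, NK cells and dendritic cells were also listed. The 22 alternatives concern background correction, normalization, the filter, the moderation of variances, array weights, the methods' t-test, the thresholds, averaged probes of a gene, a block for the replicate number, a T cell covariate, and lungs left out. The fit was tested on simulated data. The lungs are separate animals per the labels, which give no litter or chip. The study calls the controls littermates without saying which lungs share a litter.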

Additional observations from a re-analysis of the deposited data

How the results depend on the processing

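The lower median of the members kept its direction in each of the 22 alternatives, between −0.54 and −0.23. The other p thresholds, the methods' t-test, the variance trend and the replicate block share the fold changes of the main fit. Under them the median could not move. It moved most with the deposited values (−0.23) and with the T cell covariate (−0.24). The numbers of called members depended on the processing. Members called lower by the brightest probe (5), members called lower by any probe (9) and probes called over the whole array (908) became 0, 0 and 58 with no filter on dim probes. They were 1, 3 and 250 with the looser detection filter (p under 0.05, 1 array), 10, 15 and 1860 with a variance trend, and 15, 20 and 2490 with array weights. An adjusted p under 0.1 gave 14, 19 and 2679, and unadjusted p values under 0.05 gave 21, 25 and 5009. The methods' t-test after adjustment gave 0, 0 and 0. It was run on the neqc values and not on the study's lumi values, so it does not repeat the study's own test. The mean of a gene's probes gave 3, 3 and 359. Median scaling left 3 by the brightest probe, and gave a median of 0.10 over all tested probes, against 0.03. The T cell covariate left 0 by the brightest probe, 2 by any probe and 888 over the whole array. With 1 lung left out the counts ranged from 0 to 4, from 0 to 9 and from 2 to 1703. With no filter and with the looser filter more probes were tested, and with a lung left out fewer lungs. The cause of the other moves was not tested.

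Same replicate numbers were not treated as pairs, since the labels name no litters. The deviations of same-numbered lungs from their group means correlated at 0.29, −0.04 and −0.03. With the other control lungs, Tie2-cre replicates 1, 2 and 3 gave −0.15 to −0.06, −0.20 to 0.17 and −0.11 to 0.11. The value for replicate 1 lay above its range, so a pairing of those lungs was not excluded. With the replicate number as a block, 0 members were called by the brightest probe, 0 by any probe and 46 probes over the whole array.

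Signs turned for 3 named genes. Ifit2 had 0.17 with the T cell covariate, 0.11 without control replicates 1 and 2, and −0.28 to 0.0098 with 1 lung left out. Oas2 had 0.64, 0.70 and −0.37 to 0.23 in these settings, and Foxf1 −0.0088 with the covariate. Over the named genes and all alternatives, 380 values kept their direction and side of the threshold, 58 lost the threshold, 36 gained it and 10 turned sign. In the settings that share the fold changes of the main fit, only the side of the threshold could change. Signals near background limit Cd274, Mndal and the dimmer probes of Ifit3 and Dhx58, whose changes may be understated.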
